A study of Mus musculus with 20 samples.

Results

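The genes described here are 49 DNA repair genes, chosen by gene symbol from 37561 genes listed in every deposited table and grouped by the repair pathway they serve. The groups are mismatch repair (5 genes), base excision repair (10), nucleotide excision repair (8), homologous recombination together with the Fanconi anemia genes (17), and DNA end joining with the kinases and the nuclease complex that sense broken ends (9). All 49 were present once in every table, and all 49 passed the filter on level that left 13619 genes for testing.

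Cells are exposed to many kinds of DNA damage, and each pathway handles a different kind. Mismatch repair corrects copying errors behind the replication fork, base excision removes single damaged bases, and nucleotide excision cuts out bulky lesions such as those made by ultraviolet light. Double-strand breaks are either joined end to end or copied from the sister chromatid by recombination, and the Fanconi genes unhook crosslinks between the strands. Recombination and mismatch repair work mostly in dividing cells that are copying their DNA, whereas end joining and nucleotide excision are also used by cells that no longer divide, among them neurons.

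The cells were mouse D3 (ESD3) embryonic stem cells, a line from 129s2/SvPas mice that was kept on feeders of mouse embryo fibroblasts. They were grown into spherical neural masses (SNMs), a partly differentiated stage. The SNM cells were then differentiated toward dopaminergic neurons over 14 days. The HPRT knockdown line carried an shRNA against Hprt, the purine salvage enzyme that is missing in Lesch-Nyhan disease, and the Control line carried an shRNA against luciferase. Both shRNAs were delivered by virus (named a retrovirus in the labels and a lentiviral vector in the study's methods), and the transduced cells were selected with puromycin. RNA was collected from both lines on 10 days of differentiation (each day from 0 to 4, then each even day from 6 to 14) and pooled within each day, giving 20 libraries, 1 per line and day. No separate clone or second knockdown line entered the comparison, so an effect of Hprt loss and any other difference between these cell populations cannot be told apart.

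The deposited values were log2 normalised read counts with the mean of the 2 libraries of each table subtracted, so they held ratios and no levels. A ratio below 0 means a lower value in HPRT knockdown. The day was the unit of replication: 9 within-day ratios entered each test, and successive days of a line are not independent cultures. Day 6 was left out of the tests, as in the pathway analysis of the study, and its values are given separately. Hprt itself was lower in HPRT knockdown on 9 of 9 days, with a mean log2 ratio of -4.00 ± 0.89 (SD, n = 9 days, exact two-sided sign-flip permutation p = 0.00390625, the smallest that 9 days allow). On day 6 the Hprt ratio was -3.42.

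Across the 49 repair genes, 31 were lower in HPRT knockdown, 4 were higher and 14 were not called (limma, Benjamini-Hochberg adjusted p under 0.05 over 13619 genes). Of all genes tested, 26.3% were called lower and 26.2% higher. The median of the 49 mean log2 ratios was -0.43, against 0.01 for all genes tested. The ratio was below 0 on all 9 days for 23 of the 49 genes and above 0 on all 9 days for 1, Xrcc4, where 15.2% and 14.1% of all genes tested did so. Lower were 14 of 17 recombination and Fanconi genes, 4 of 5 mismatch genes, 6 of 10 base excision genes, 6 of 9 end joining genes and 1 of 8 nucleotide excision genes. Without the pairing by day, 10 of the 35 calls were lost (Neil1, Ercc3, Rad54l, Brca1, Xrcc3, Fanca, Fancd2, Fanci, Atm and Nbn). In bulk RNA, fewer cells of a type and less RNA per cell cannot be told apart.

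**Figure D1:**
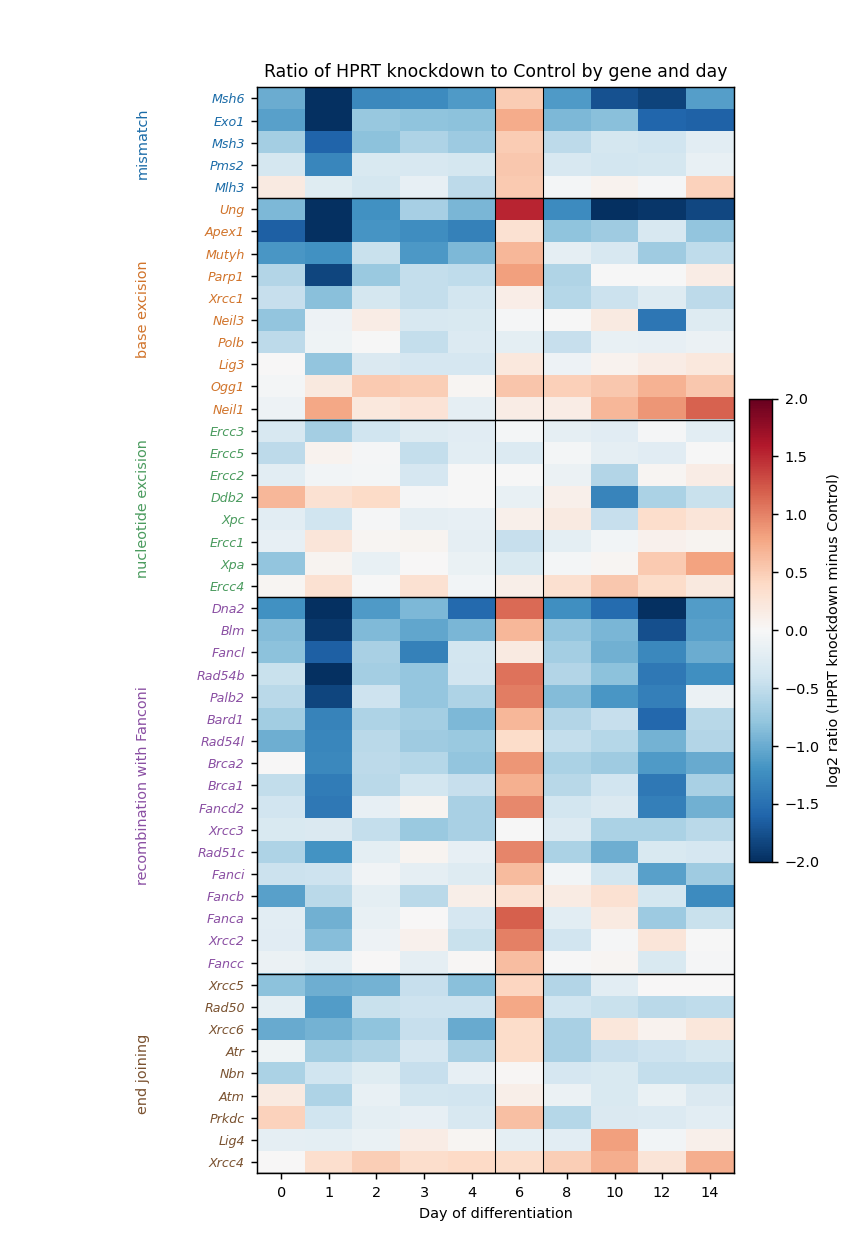
Heatmap of the log2 ratio of HPRT knockdown to Control for each of the 49 genes (rows, grouped by pathway and ordered by mean) on each of the 10 days (columns). Colours saturate at 2 in either direction, and day 6 is boxed. The rows of mismatch and recombination genes are mostly blue on the 9 other days and red on day 6, and those of nucleotide excision genes are pale.

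Of 24 markers of proliferating cells, 23 were called lower as well, where 26.3% of all genes tested were. All 24 means were below 0, with a median log2 ratio of -0.96. The marker not called was Mki67, with a mean of -0.22 ± 0.51 (limma adjusted p = 0.2731) and 5 of 9 days above 0. By day, the median ratio of these markers ran from -1.52 on day 1 to -0.59 on day 10, and that of the 49 repair genes from -0.84 on day 1 to -0.29 on day 14. Markers of other cells that the cultures could hold were set beside all genes tested, of which 26.3% were called lower and 26.2% higher. Of 9 neural progenitor markers 2 were lower and 2 higher (median -0.15). Of 9 pluripotency markers 9 were lower (median -2.78), of 10 neuron markers 7 were lower (median -1.55), of 13 glia markers 8 were higher (median 1.86), and of 9 markers of feeder fibroblasts 2 were lower and 2 higher (median -0.32). The counts of progenitor and feeder fibroblast markers were near the shares over all genes tested. The part of these marker differences in the repair gene results was not tested.

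**Figure D2:**
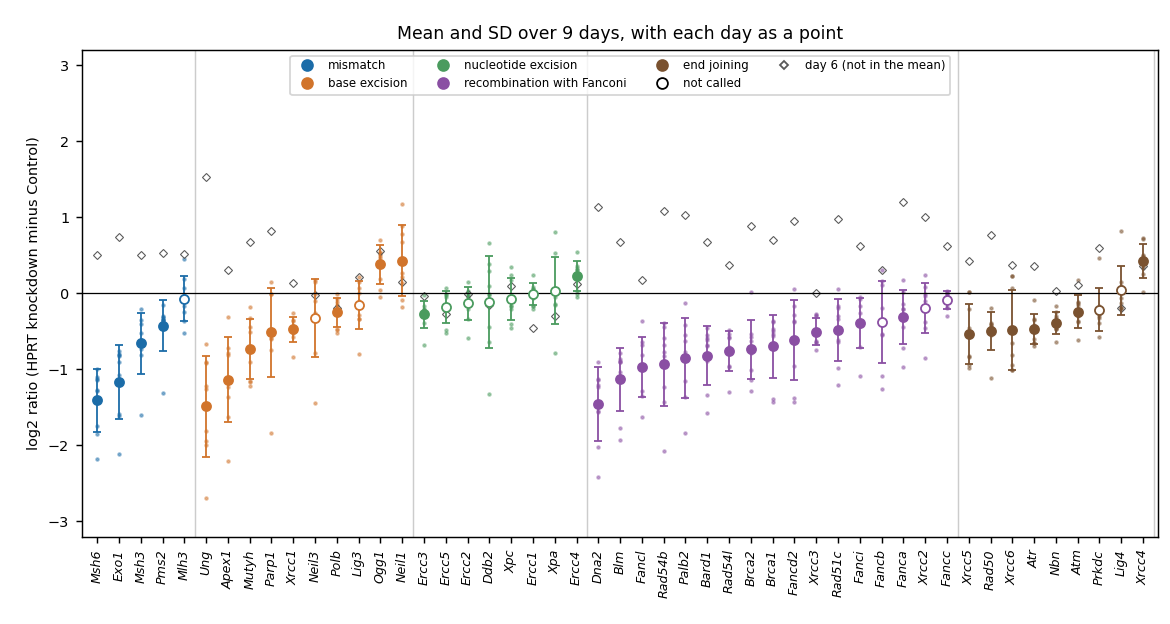
Mean log2 ratio of each gene over 9 days (large circles, filled where called) with its SD, grouped by pathway. Small points are the 9 days and diamonds are day 6. Ung, Dna2 and Msh6 have the lowest means (-1.49, -1.46 and -1.41), and 4 filled circles lie above 0, those of Ogg1, Neil1, Ercc4 and Xrcc4.

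Promoter sequence is shown for 5 of the genes that the results turn on, so that genes called lower can be read beside 1 called higher. The 5 were picked and do not represent the others, and the matches in all genes with a window are counted after the sequences. RefSeq windows of 300 bases, 250 before and 50 after the annotated start, were on hand for 38 of the 49 genes (build GRCm38.p6). They were searched on both strands for an E2F type motif, bound by the factors that drive S phase genes (TTTGGCGC, TTTCGCGC, TTTCCCGC or TTTGCCGC), for an NRF1 type motif (GCGCATGC), and for the cell cycle homology region (TTTGAA). GCGCATGC and its reverse complement can overlap each other. The lines below give 150 bases before and 4 after the start, 5′ to 3′ on the gene's own strand, with the matches to the E2F type or NRF1 type letters in capitals.
Xrcc6 (Ku70, chr15:82016219-82016372, plus strand): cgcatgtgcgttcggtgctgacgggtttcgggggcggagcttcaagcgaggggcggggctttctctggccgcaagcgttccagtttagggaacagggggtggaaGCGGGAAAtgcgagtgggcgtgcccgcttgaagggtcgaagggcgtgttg
Xrcc5 (Ku80, chr1:72307271-72307424, plus strand): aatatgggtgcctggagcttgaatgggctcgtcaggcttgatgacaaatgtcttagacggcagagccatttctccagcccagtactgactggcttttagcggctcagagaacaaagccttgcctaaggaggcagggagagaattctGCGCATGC
Dna2 (chr10:62946879-62947032, plus strand): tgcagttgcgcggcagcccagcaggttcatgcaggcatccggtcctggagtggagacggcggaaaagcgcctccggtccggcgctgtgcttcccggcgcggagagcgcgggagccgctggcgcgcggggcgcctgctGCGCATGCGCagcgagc
Ung (chr5:114130285-114130438, plus strand): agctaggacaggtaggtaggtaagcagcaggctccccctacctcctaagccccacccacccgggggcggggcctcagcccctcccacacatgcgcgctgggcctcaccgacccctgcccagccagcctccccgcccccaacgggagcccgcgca
Neil1 (chr9:57148302-57148455, minus strand): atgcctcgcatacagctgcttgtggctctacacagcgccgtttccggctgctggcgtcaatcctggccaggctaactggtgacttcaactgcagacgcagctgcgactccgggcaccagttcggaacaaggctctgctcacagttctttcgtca

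In these windows, the E2F type match of Xrcc6 began 46 bases before the start, the NRF1 type match of Xrcc5 began 4 bases before it and ran across it, and Dna2 held an overlapping pair that began 13 and 11 bases before it. Ung, with the lowest mean ratio of the 49, and Neil1, with the highest, held none of these letters in the bases shown. Across the 38 genes with a window, 6 held an E2F type match (Msh3, Msh6, Rad51c, Brca2, Bard1 and Xrcc6), and all of these 6 were among the genes called lower, as were 24 of the 38. Xrcc6 is a borderline call, lost when any of 6 of the 9 days is left out. The share was 15.8% of the 38 genes, against 4.68% of the 9454 tested genes with a window and 2.26% of all 32851 windows. An NRF1 type match stood in 7 of the 38 (18.4%, against 5.99% of tested genes and 2.71% of windows), 4 of them called lower and 3 not called. The cell cycle homology letters were found in 2 of the 38 (5.26%, against 13.8% of tested genes and 17.9% of windows). A match is a description of the letters and not evidence of a bound site.

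In mismatch repair 4 of 5 genes were lower in HPRT knockdown, and the median of the 5 mean log2 ratios was -0.66. Msh6, a subunit of the complex that recognises base mismatches (chr17:88374390-88390223, plus strand, NCBIM37), had log2 ratios of -0.99, -2.18, -1.29, -1.27 and -1.13 on days 0 to 4 and of -1.14, -1.74, -1.85 and -1.10 on days 8 to 14. All 9 days were below 0 and day 1 was the lowest. The mean was -1.41 ± 0.41 (SD, n = 9), 37.7% of Control (limma adjusted p = 5.844e-05).

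Exo1, the exonuclease that removes the strand carrying the error (chr1:177810909-177841527, plus strand), gave log2 ratios of -1.08, -2.11, -0.76, -0.80 and -0.82 on days 0 to 4 and -0.90, -0.83, -1.58 and -1.61 on days 8 to 14. These averaged -1.17 ± 0.48 (limma adjusted p = 0.0002693), and none of the 9 tested days reached 0. Msh3, which pairs with the same partner as Msh6 to bind small loops, and Pms2, the endonuclease subunit of the complex that acts next, were also below 0 on 9 of 9 days, with means of -0.66 ± 0.40 and -0.43 ± 0.34. Mlh3, whose main known role is in meiotic crossing over, had a mean of -0.07 ± 0.29 and 3 days above 0 (adjusted p = 0.5765).

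Base excision repair held genes in both directions. Lower were Ung, Apex1, Mutyh, Parp1, Xrcc1 and Polb, higher were Ogg1 and Neil1, and Neil3 and Lig3 were not called. The proteins act in order: a glycosylase takes out the damaged base, Apex1 cuts the emptied strand, and polymerase, scaffold and ligase close the gap.

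Ung, the glycosylase that removes uracil from DNA (chr5:114580395-114589332, plus strand, NCBIM37), had the lowest mean of the 49 genes. Its log2 ratios were -0.90, -2.70, -1.21, -0.66 and -0.92 on days 0 to 4 and -1.25, -1.99, -1.94 and -1.81 on days 8 to 14. The mean was -1.49 ± 0.66, or 35.7% of Control (limma adjusted p = 0.00034), with all 9 days below 0 and the 3 last days lower than every earlier day but day 1.

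A pair of glycosylases for oxidised bases was higher. Ogg1, which removes 8-oxoguanine (chr6:113276966-113285062, plus strand), had log2 ratios of -0.04, 0.19, 0.52, 0.49 and 0.04 on days 0 to 4 and of 0.47, 0.55, 0.70 and 0.53 on days 8 to 14. The mean of 0.38 ± 0.26 was above 0 (limma adjusted p = 0.005684), with 8 of 9 days positive. Of its exonic bases 11.4% were shared with Camk1 on the other strand, and the libraries did not keep the strand.

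Neil1, which removes oxidised pyrimidines (chr9:56990607-56995929, minus strand), had ratios of -0.09, 0.78, 0.21, 0.27 and -0.17 on days 0 to 4, and then 0.14, 0.67, 0.89 and 1.17 on days 8 to 14. The mean was 0.43 ± 0.47 (limma adjusted p = 0.03196), and the call was lost when day 1, 10, 12 or 14 was left out (highest adjusted p = 0.07281). Mutyh, which takes out adenine paired with 8-oxoguanine, was lower, with a mean of -0.73 ± 0.39 and 9 of 9 days below 0. Neil3 had a mean of -0.32 ± 0.51 (adjusted p = 0.116) and ran from -1.45 on day 12 to 0.18 on day 10.

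Apex1, the endonuclease through which nearly all base excision passes (chr14:51544643-51546814, plus strand), had log2 ratios of -1.63, -2.21, -1.18, -1.23 and -1.36 on days 0 to 4 and -0.81, -0.72, -0.32 and -0.78 on days 8 to 14. All 9 tested days were below 0, and the 4 late days lay above the 5 early ones. The mean was -1.14 ± 0.56 (limma adjusted p = 0.0006043). Apex1 is a short gene, and 61.7% of its exonic bases were shared with Tmem55b on the opposite strand, so reads of the pair cannot be told apart.

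Downstream of the cut, Xrcc1, the scaffold of single-strand break repair, had a mean of -0.47 ± 0.17 and Polb, the gap-filling polymerase, one of -0.25 ± 0.19, both below 0 on 9 of 9 days. Parp1, which senses nicks, had a mean of -0.51 ± 0.59 with a range from -1.84 on day 1 to 0.15 on day 14 (limma adjusted p = 0.03676). Its call was lost when any of days 0, 2, 3, 4 or 8 was left out. Lig3, the ligase partner of Xrcc1, averaged -0.16 ± 0.31 and was not called.

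Nucleotide excision repair had 1 gene lower, 1 higher and 6 not called. Its median mean log2 ratio was -0.09, among these 49 genes the nearest to 0 of the 5 pathways. On no day did the median of its 8 genes leave the range from -0.21 to 0.10. Ercc3, a helicase subunit of the general transcription factor TFIIH that opens the DNA around the lesion, had ratios of -0.31, -0.68, -0.39, -0.26 and -0.22 on days 0 to 4 and -0.17, -0.22, -0.03 and -0.20 on days 8 to 14. The mean of -0.28 ± 0.18 was small, yet all 9 days were below 0 (limma adjusted p = 0.009238). Its partner helicase Ercc2 had a mean of -0.13 ± 0.22 and was not called.

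Ercc4, the nuclease subunit that cuts on the 5′ side of the lesion (chr16:13109777-13150710, plus strand), had log2 ratios of 0.03, 0.30, -0.01, 0.30 and -0.05 on days 0 to 4 and 0.33, 0.54, 0.36 and 0.19 on days 8 to 14. The mean was 0.22 ± 0.20 (limma adjusted p = 0.03179), with 7 of 9 days above 0, and the call was lost when any of 5 single days was left out (highest adjusted p = 0.06925). Ercc1, its obligate partner, had a mean of -0.01 ± 0.15. Ercc5, which cuts on the 3′ side, and the lesion recognition genes Xpc and Xpa had means of -0.18, -0.08 and 0.03 and were not called.

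Recombination and the Fanconi genes had the lowest median of the 5 pathways, -0.70, with 14 of 17 genes lower and 17 of 17 means below 0. On day 1 all 17 ratios were below 0 and 13 were at least 1.5-fold lower, where 51.1% and 24.3% of all genes tested were so. Dna2, a nuclease and helicase that resects broken ends and trims Okazaki fragments (chr10:62409774-62436933, plus strand, NCBIM37), had ratios of -1.21, -2.42, -1.14, -0.91 and -1.56 on days 0 to 4 and -1.23, -1.54, -2.02 and -1.12 on days 8 to 14. The mean was -1.46 ± 0.49, 36.4% of Control (limma adjusted p = 9.912e-05).

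Blm, the RecQ helicase that is lost in Bloom syndrome and that works with Dna2 in resection (chr7:87599879-87680005, minus strand), had ratios of -0.87, -1.93, -0.89, -1.04 and -0.91 on days 0 to 4 and -0.79, -0.91, -1.77 and -1.09 on days 8 to 14. None of the 9 tested days rose above -0.79, and the mean was -1.13 ± 0.42 (limma adjusted p = 0.0001652). The day 1 and day 12 ratios were the lowest in both Dna2 and Blm.

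Among the genes that set up strand exchange, Brca1 (mean log2 ratio -0.70 ± 0.41), its partner Bard1 (-0.82 ± 0.39), the bridging protein Palb2 (-0.85 ± 0.53) and Brca2 (-0.74 ± 0.38) were all called lower. Their ratios were below 0 on 9 of 9 days, except that of Brca2, which was 0.01 on day 0. The translocases Rad54l and Rad54b had means of -0.76 ± 0.27 and -0.94 ± 0.55. Of the genes of the paralog complexes that assist strand exchange, Xrcc3 (-0.50 ± 0.18) and Rad51c (-0.49 ± 0.41) were called and Xrcc2 (-0.19 ± 0.33) was not.

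Among the Fanconi genes, Fancl, the ubiquitin ligase subunit, had the lowest mean, -0.97 ± 0.40. The pair that it modifies, Fancd2 and Fanci, had means of -0.62 ± 0.53 and -0.40 ± 0.33. Of the core complex genes, Fanca was called at -0.32 ± 0.35 (limma adjusted p = 0.04161) but lost its call when any of 7 of the 9 days was left out, and Fancb (-0.38 ± 0.54) and Fancc (-0.09 ± 0.12) were not called.

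End joining and break signalling had 6 genes lower, 1 higher and 2 not called, with a median mean log2 ratio of -0.39. Xrcc5 (Ku80), which forms the ring that first grips a broken end (chr1:72353995-72441526, plus strand, NCBIM37), had ratios of -0.82, -0.98, -0.95, -0.46 and -0.84 on days 0 to 4 and of -0.58, -0.21, 0.02 and 0.01 on days 8 to 14. Rad50, the zinc-hook subunit of the complex that tethers the ends (chr11:53463021-53520821, minus strand), had ratios of -0.20, -1.12, -0.44, -0.42 and -0.41 on days 0 to 4 and -0.39, -0.45, -0.55 and -0.51 on days 8 to 14. The means were -0.53 ± 0.40 for Xrcc5 and -0.50 ± 0.25 for Rad50 (limma adjusted p = 0.006053 and 0.00132). The Xrcc5 ratio was near 0 by days 12 and 14, whereas that of Rad50 was not.

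Xrcc4, the partner of the ligase that seals the break (chr13:89913632-90229213, minus strand), was the 1 gene of the 49 above 0 on all 9 days. Its ratios were 0.01, 0.33, 0.50, 0.36 and 0.40 on days 0 to 4 and 0.49, 0.73, 0.25 and 0.72 on days 8 to 14. The mean was 0.42 ± 0.23, 134% of Control (limma adjusted p = 0.002146). Lig4, that ligase, was not called (0.04 ± 0.32, from -0.20 to 0.82), and neither was Prkdc, the kinase that Ku recruits (-0.22 ± 0.28). Nbn, which completes the Rad50 complex, and the checkpoint kinases Atr and Atm had means of -0.39 ± 0.14, -0.47 ± 0.20 and -0.24 ± 0.22, all called lower, although Atm lost its call when any of 5 single days was left out.

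Of 53 further repair genes in the same pathways, 50 could be tested. By limma 26 were lower, 0 higher and 24 not called, where 26.3% of all genes tested were lower and 26.2% higher. The median mean log2 ratio of the 50 was -0.28. Above 0, 2 of the 50 had an unadjusted p under 0.05 and 1 was called by the exact sign-flip permutation test. The lower calls were 11 of 17 in recombination, 6 of 12 in base excision, 5 of 12 in nucleotide excision, 3 of 8 in end joining and 1 of 1 in mismatch repair. The order of the pathway medians was not that of the 49 genes. End joining (-0.17) was nearer to 0 than nucleotide excision (-0.23), and base excision (-0.47) lay below recombination (-0.34). Among the lower genes was Eme1, a subunit of a nuclease that resolves joint molecules, with a mean of -1.01 ± 0.52 (limma adjusted p = 0.0008106) and 9 of 9 days below 0.

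**Figure D3:**
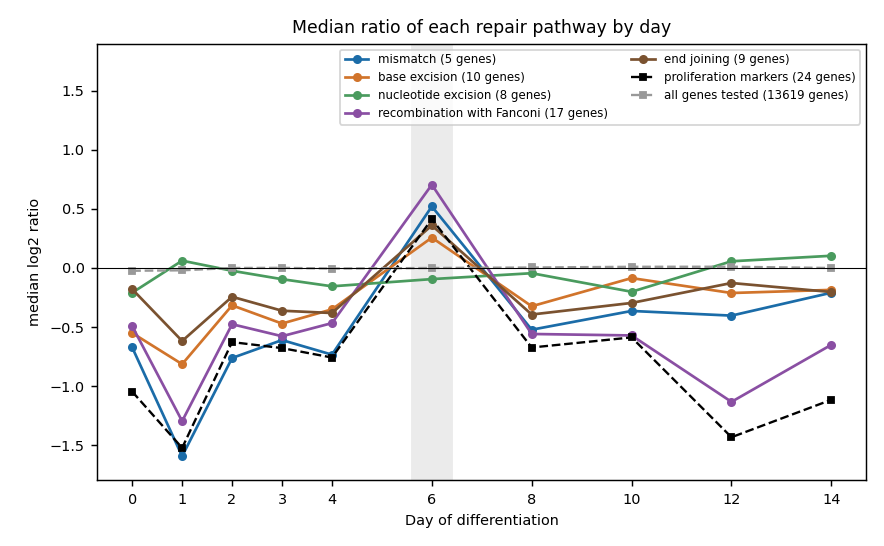
Median log2 ratio of HPRT knockdown to Control by day for the 5 pathways (solid lines), the 24 proliferation markers and all 13619 genes tested (dashed lines). Day 6 is shaded. The recombination line has lows of -1.30 (day 1) and -1.13 (day 12) and a peak of 0.71 at the shaded day, while the nucleotide excision line stays between -0.21 and 0.10.

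Day 6 stood apart. On that day 39 of the 49 ratios were above 0, with a median of 0.43, where 6762 of the 13619 genes tested were above 0. Of the 31 repair genes called lower, 28 had a ratio above 0 that was also above all of their 9 other days. The highest were Ung at 1.53, Fanca at 1.20, Dna2 at 1.13 and Rad54b at 1.09. The tables of successive days placed the shift in both lines. From day 4 to day 6 the median log2 step of the 49 genes was -0.46 in Control, with 43 steps below 0, and 0.50 in HPRT knockdown, with 41 above 0. From day 6 to day 8 the median step was -0.78 in HPRT knockdown, with 45 steps below 0 and 29 of them at least 1.5-fold, and 0.19 in Control. Over all genes tested, the median step from day 4 to day 6 was -0.01 in Control and 0.01 in HPRT knockdown. From day 6 to day 8 it was -0.01 in each line. The proliferation markers were above 0 on day 6 as well (median 0.41, 22 of 24 genes), and the Hprt ratio was below 0. With day 6 kept in the fit, 9 of the 35 calls were lost (Pms2, Parp1, Rad51c, Fanca, Fancd2, Fanci, Xrcc6, Atm and Rad50), leaving 22 genes lower and 4 higher.

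Within Control, 33 of the 49 genes fell over the days of differentiation. The slope of the log2 value on day was below 0 for 33 genes, above 0 for 1 and not called for 15, where 23.9% of all genes tested had a falling and 19.7% a rising slope. The steepest declines were those of Rad54l (-0.14 ± 0.02 log2 per day, SE), Dna2 (-0.13 ± 0.03), Exo1 (-0.12 ± 0.02), Apex1 (-0.12 ± 0.02) and Fanca (-0.11 ± 0.02). In the recombination group 15 of 17 genes fell, in base excision 7 of 10, in mismatch repair 3 of 5, in end joining 5 of 9 and in nucleotide excision 3 of 8. All 24 proliferation markers fell in Control as well (median slope -0.11 log2 per day). On log2(day + 1) in place of day, 10 genes had a falling slope and 0 a rising one. Relative to day 0 the median of the 49 genes was 0.17 by day 4 and -0.33 by day 10, and it had reached -0.66 at the last collection. Without day 14 the number of falling genes was 19.

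In HPRT knockdown, 6 genes had a falling slope (Brca1, Brca2, Xrcc3, Dna2, Fancc and Nbn), 1 a rising slope (Xpa) and 42 were not called, where 5.51% of all genes tested fell and 7.61% rose. The median slope of the 49 genes was -0.05 log2 per day here and -0.06 in Control. The count of falling genes rested on single days, since it was 0 without day 14 and 17 without day 1. Xpa, the damage verification protein of nucleotide excision, rose by 0.10 ± 0.01 log2 per day (limma adjusted p = 0.00214).

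**Figure D4:**
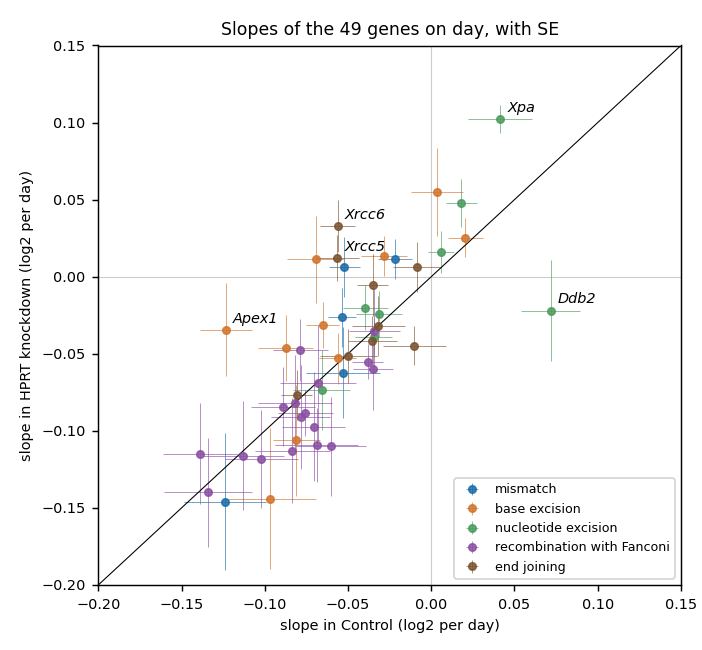
Slope of each of the 49 genes on day in Control (horizontal) and in HPRT knockdown (vertical), in log2 per day, with SE; the diagonal marks equal slopes. Most points lie near the diagonal and below 0, and the labelled genes, Apex1, Xpa, Xrcc5, Xrcc6 and Ddb2, are those whose ratio had a called slope on day.

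The difference between the lines itself changed over days for 5 genes: the ratio rose for 4 and fell for 1, where 7.44% of all genes tested had a rising and 6.61% a falling ratio. Xrcc6 (Ku70), the other subunit of the Ku ring (chr15:81818265-81870515, plus strand, NCBIM37), had ratios of -1.01, -0.94, -0.81, -0.46 and -1.003 on days 0 to 4 and -0.65, 0.22, 0.07 and 0.23 on days 8 to 14. Of the 9 tested days, those to day 8 were below 0 and the 3 later ones above it, and day 6 was at 0.37. Its ratio rose by 0.09 ± 0.02 log2 per day (SE, limma adjusted p = 0.01589) and that of its partner Xrcc5 by 0.07 ± 0.01 (adjusted p = 0.01587). In Control both subunits fell, by 0.06 log2 per day each, and in HPRT knockdown neither slope was called (0.03 ± 0.02 and 0.01 ± 0.02).

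Apex1 and Xpa also had rising ratios, of 0.09 ± 0.02 and 0.07 ± 0.02 log2 per day. Ddb2, which finds ultraviolet lesions in chromatin (chr2:91051729-91077139, minus strand), went the other way. Its log2 ratios were 0.66, 0.30, 0.38, -0.02 and -0.01 on days 0 to 4 and 0.10, -1.33, -0.64 and -0.44 on days 8 to 14, a slope of -0.09 ± 0.03 per day (limma adjusted p = 0.04754). In Control Ddb2 was the 1 gene with a rising slope (0.07 ± 0.02), and 23.8% of its exonic bases were shared with Acp2 on the opposite strand. All 5 calls were lost when day 12 was left out, or when day 6 was kept.

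**Figure D5:**
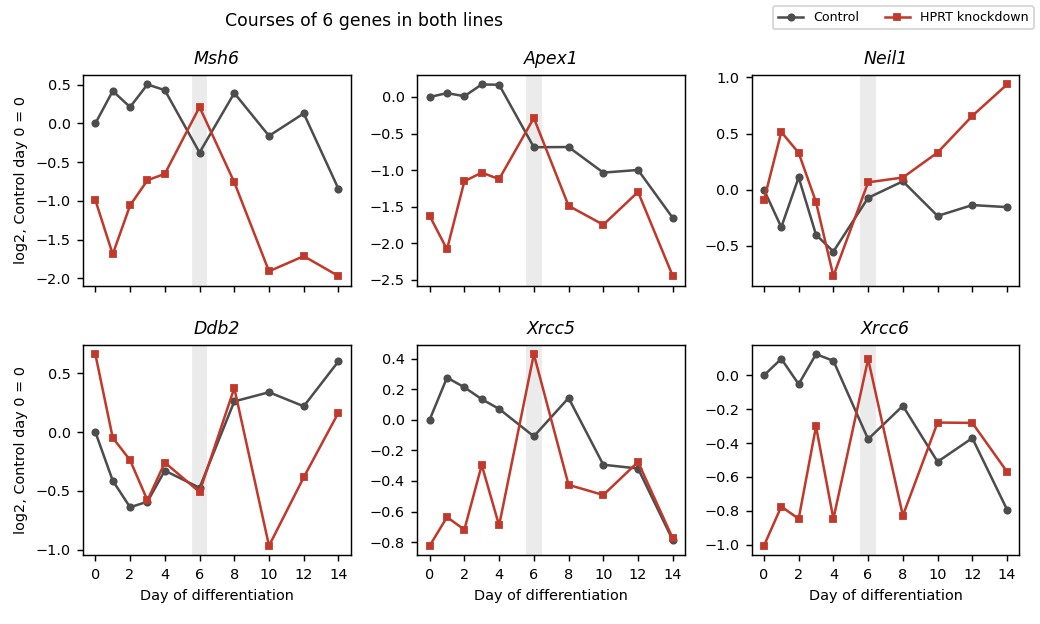
Courses of Msh6, Apex1, Neil1, Ddb2, Xrcc5 and Xrcc6 by day in Control (grey circles) and HPRT knockdown (red squares), on a log2 scale with Control on day 0 set to 0; day 6 is shaded. HPRT knockdown lies below Control for Msh6 on every day but day 6, when it lies above, those of Xrcc5 and Xrcc6 meet or cross by day 12, and those of Ddb2 start with HPRT knockdown 0.66 above Control and end with it 0.44 below.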

How the data were processed

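RNA of 20 libraries (1 per line and day) was sequenced on an Illumina HiSeq for 50 cycles from TruSeq v2 libraries, which do not keep the strand. Per the study's methods the authors aligned reads to NCBI37/mm9 with ELAND in CASAVA 1.8.2, counted them in Avadis NGS and normalised with DESeq. The deposited values were log2 normalised counts, 2 libraries per table in 28 tables (10 same-day, 9 successive-day per line), with the mean of the pair subtracted by the authors. The study states only an average read number, so the depth of each library is unknown and no counting interval is given.

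Here the 2 columns of each table were subtracted, and the steps of each line were joined. Values of both lines were checked around loops of 4 tables, with the median over tested genes taken off each loop. A constant offset between tables therefore does not show in the check. In 8 of 9 loops 90.4% to 92% of tested genes agreed within 1e-05 log2, and in that of days 3 and 4 0.022% did (for the 49 genes, median gap 0.03 log2, largest 0.22). A typical log2 count of at least 4, read from the rounding step of the single-precision values, kept 13619 of 19041 genes with reads. limma 3.58.1 (R 4.3.3) tested the mean of the 9 ratios and the slopes on day, with Benjamini-Hochberg adjustment at 0.05. Pairing is by differentiation day from the labels, and deviations of the 2 libraries of a day correlated at 0.13 to 0.41 on 8 days and at -0.03 on day 0. Of the further repair genes, 1 named by the rule is not reported here. Of the 49 genes, 8 shared over 10% of their exonic bases with another gene in the NCBIM37 annotation (Ogg1, Apex1, Lig3, Ercc2, Ddb2, Rad54l, Fanci and Fancl). The fits were also run on simulated data with noise drawn independently for each gene and day. Those data held no dependence between successive days and no shift shared across a library, so they cannot test the effect of either.

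The members and gene lists were chosen with earlier results of these data known. Values of every day are given for the 2 called genes with the largest mean per pathway, called genes in the minority direction, and the 3 largest called slopes of the ratio. Alternatives were another level filter, none, day 6 kept, centred tables, limma's trend, a sign-flip test, an unpaired fit, slopes on log2(day + 1), the Control step from day 3 to 4 through the knockdown tables, and leaving out each day.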

Additional observations from a re-analysis of the deposited data

Results flagged for a closer look

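A single day lay far from the other 9 (gap over range above Dixon's 95% critical value, which chance alone passes in about 1 of 20 groups) for 14 of the 49 genes, on day 6 in 12 of them. The day 6 log2 ratios were 0.51 for Msh6, 0.74 for Exo1, 1.53 for Ung, 0.37 for Rad54l, 1.09 for Rad54b, 0.71 for Brca1, 0.67 for Bard1, 0.67 for Blm, 1.13 for Dna2, 1.20 for Fanca, 0.62 for Fancc and 0.77 for Rad50. The other flags were Pms2 on day 1, at -1.31, and Lig4 on day 10, at 0.82. Of the medians over all 49 genes and over each pathway, 3 of 6 had day 6 apart: 0.43 over the 49 genes, 0.71 over recombination and 0.36 over end joining.

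By the test of the ratio, a difference in slope on day between the lines (HPRT knockdown minus Control) was called for 5 genes. The slopes were 0.0919 log2 per day for Apex1, 0.0710 for Xpa, -0.0923 for Ddb2, 0.0707 for Xrcc5 and 0.0915 for Xrcc6. Of all genes tested, 7.44% had a rising and 6.61% a falling ratio. All 5 calls were lost when day 12 was left out, or when day 6 was kept.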

How the results depend on the processing

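No alternative reversed the direction of a call. Of the 31 lower and 4 higher genes, 16 and 0 had a mean of at least 1.5-fold. With a level of at least 8, which tests 34 of the 49, 25 were lower and 1, Ercc4, was higher. Ogg1, Neil1, Xrcc4, Xpa and Ddb2 lay below that level and were not tested there. Leaving out 1 day gave 27 to 31 lower and 2 to 4 higher; the genes that lost a call were Neil1, Parp1, Ercc4, Fanca, Xrcc6 and Atm. The exact sign-flip test lost Neil1 and Xrcc6 (adjusted p = 0.0541 and 0.0718), and the fit with no filter lost Parp1 and Fanca (0.05433 and 0.05245). Without the pairing by day (no replicate block), 22 were lower and 3 higher. Trends depended more on the settings. Falling in Control numbered 10 and rising 0 on log2(day + 1), rising 0 at a level of at least 8, and leaving out 1 day gave 19 to 37 falling and 0 to 3 rising. In HPRT knockdown, 3 fell with day 6 kept, 11 fell and 0 rose at a level of at least 8, 0 fell on log2(day + 1), and leaving out 1 day gave 0 to 17 falling and 1 to 2 rising. For the ratio, 0 rose and 0 fell with day 6 kept, 0 fell at a level of at least 8 and with no filter, and leaving out 1 day gave 0 to 1 falling and 0 to 6 rising. The cause of these changes was not tested. The depth of each library is unknown, and a gene not called may differ by less than these 9 days can show.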
